A study of Mus musculus with 12 samples.

Results

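Red cells and dying fibres release heme, the iron-carrying pigment of hemoglobin and myoglobin, into injured muscle, and the genes that break it down and handle its iron were followed here. The set was chosen as a list of 10 genes: Hmox1, Blvra, Blvrb, Slc40a1, Slc11a1, Tfrc, Alas1, Alas2, Fth1 and Hpx. A gene was kept if a transcript cluster (the probe set for 1 gene on the array) carried its symbol alone, which held for 9 of the 10 genes among 19752 genes in all. Slc11a1 had no cluster of its own and was not analysed here. Each of the 9 had 1 cluster. The rule that kept them used no values, but the list was chosen with earlier results of these data known.

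RNA from whole tibialis anterior muscle of C57BL/6 mice aged 8 weeks was measured on 12 Affymetrix Mouse Gene 1.0 ST arrays, 3 per group. Every mouse had received cardiotoxin, a venom protein that kills muscle fibres, in that muscle on day 0, and diphtheria toxin on alternate days. The groups were Foxp3-DTR+ mice given amphiregulin (AREG, a ligand of the epidermal growth factor receptor) and taken at day 8, Foxp3-DTR+ mice given phosphate-buffered saline (PBS) and taken at day 8, Foxp3-DTR- mice given AREG and taken at day 4, and Foxp3-DTR- mice given PBS and taken at day 4. AREG or PBS went into the muscle on day 0 and then into the peritoneum on alternate days. Foxp3-DTR places the diphtheria toxin receptor under the regulatory T (Treg) cell gene Foxp3, so that the toxin is meant to remove Treg cells in DTR+ mice alone. Day and genotype changed together and cannot be told apart, and no uninjured muscle was among the arrays. Whether each array is a different mouse is not said in the labels, and the p-values reflect array-to-array spread, which may be technical.

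Heme oxygenase opens the heme ring and gives biliverdin, carbon monoxide and iron, and biliverdin reductases turn biliverdin into bilirubin. The freed iron is stored in ferritin or leaves the cell through ferroportin. In muscle repair much of this work is known to fall to macrophages that have engulfed red cells and fibre debris. Cells take up iron through the transferrin receptor, and the first step of heme synthesis is made by aminolevulinate synthases, one found in most cells and one in red cell precursors.

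Among the 9 genes 1 stood out. Hmox1, the inducible heme oxygenase, was lower in AREG muscle than in PBS muscle at day 4 and had no such difference at day 8. The other 8 genes gave no call in any comparison. The ferritin light chain gene Ftl1, which was not in the set, followed Hmox1 more closely than any other gene searched.

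Values are log2 intensities, on which a difference of 1 is a doubling, and they compare 1 gene between arrays, not genes with each other. A gene was called when limma's p, adjusted by Benjamini-Hochberg across the 19752 genes, was under 0.05. The muscle label fitted the values, since 16 of 16 mature fibre markers exceeded the median gene. Foxp3 itself, a dim cluster, read 6.58 to 6.75 in the AREG and 6.49 to 6.65 in the PBS group of DTR+ mice at day 8, against 6.51 to 6.73 in the AREG and 6.51 to 6.67 in the PBS group of DTR- mice at day 4. The ranges of DTR+ and DTR- muscle overlapped with AREG and with PBS. Replicate 3 of the AREG group at day 8 stood apart from the other arrays of its group: its 20 macrophage markers summed to an intensity of 7944, against 21932 and 16143 in replicates 1 and 2. Where 1 of the 9 genes, Urod or Nqo1 moved by over 1.5 times between AREG and PBS at day 8 without that array, both values are given. For the other genes named below, Ftl1 among them, the day 8 difference was not looked at without that array.

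Upstream sequence is shown for Ftl1, since it moved with Hmox1, for both biliverdin reductase genes, of which Blvrb was lower with AREG on both days without passing the test, and for Alas2, which had the smallest p of the 9 genes between the PBS groups without passing the test. Each line holds the 250 bases before the annotated start, 5′ to 3′, from RefSeq on GRCm38.p6, and capitals mark a motif match. The windows lie at chr7:45459887-45460136 on the minus strand (Ftl1), chr2:127070407-127070656 on the plus strand (Blvra), chr7:27447728-27447977 on the plus strand (Blvrb) and chrX:150547167-150547416 on the plus strand (Alas2).
Ftl1: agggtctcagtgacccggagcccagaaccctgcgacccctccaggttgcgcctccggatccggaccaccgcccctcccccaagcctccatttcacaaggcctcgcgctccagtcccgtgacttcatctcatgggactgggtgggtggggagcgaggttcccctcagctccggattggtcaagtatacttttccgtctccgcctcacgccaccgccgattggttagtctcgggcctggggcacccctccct
Blvra: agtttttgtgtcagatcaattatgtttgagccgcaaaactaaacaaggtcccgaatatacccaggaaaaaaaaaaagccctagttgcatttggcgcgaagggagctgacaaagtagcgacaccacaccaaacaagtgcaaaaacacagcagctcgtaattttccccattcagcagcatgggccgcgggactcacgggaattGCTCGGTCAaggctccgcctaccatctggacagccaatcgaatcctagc
Blvrb: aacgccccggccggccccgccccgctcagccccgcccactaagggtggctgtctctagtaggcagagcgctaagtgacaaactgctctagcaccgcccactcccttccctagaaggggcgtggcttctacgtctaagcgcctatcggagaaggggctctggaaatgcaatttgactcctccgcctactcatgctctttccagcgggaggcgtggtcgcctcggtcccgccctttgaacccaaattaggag
Alas2: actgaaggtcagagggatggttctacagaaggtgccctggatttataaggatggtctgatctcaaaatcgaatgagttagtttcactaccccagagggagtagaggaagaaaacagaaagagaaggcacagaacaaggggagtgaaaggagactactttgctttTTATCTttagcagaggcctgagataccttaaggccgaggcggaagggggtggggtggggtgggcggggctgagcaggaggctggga

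The motifs searched, on both strands and from 250 bases before to 50 bases after each start, were the core of the antioxidant response element, TGACNNNGC, which the factors NRF2 and BACH1 bind, and the GATA factor element AGATAA. Of the 9 genes 7 had a window in the table, and Hmox1 and Slc40a1 did not. The antioxidant core was found in 2 of the 7, at position -49 for Blvra and -95 for Hpx, and in 12.4% of all 32851 windows. The GATA element was found in 1 of the 7, on the opposite strand at -86 of Alas2, and in 11.2% of all windows. Neither motif was found in the Ftl1 or the Blvrb windows.

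Heme breakdown begins with Hmox1. At day 8 Hmox1 read 8.43, 8.15 and 8.29 in the AREG arrays (replicates 1, 2 and 3), against 8.19, 8.22 and 8.35 in the PBS arrays. At day 4 it read 7.51, 7.83 and 7.48 in the AREG arrays, against 8.44, 8.76 and 8.46 in the PBS arrays. The 3 AREG arrays of day 4 were thus the lowest of all 12, and the day 8 groups overlapped.

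**Figure D1:**
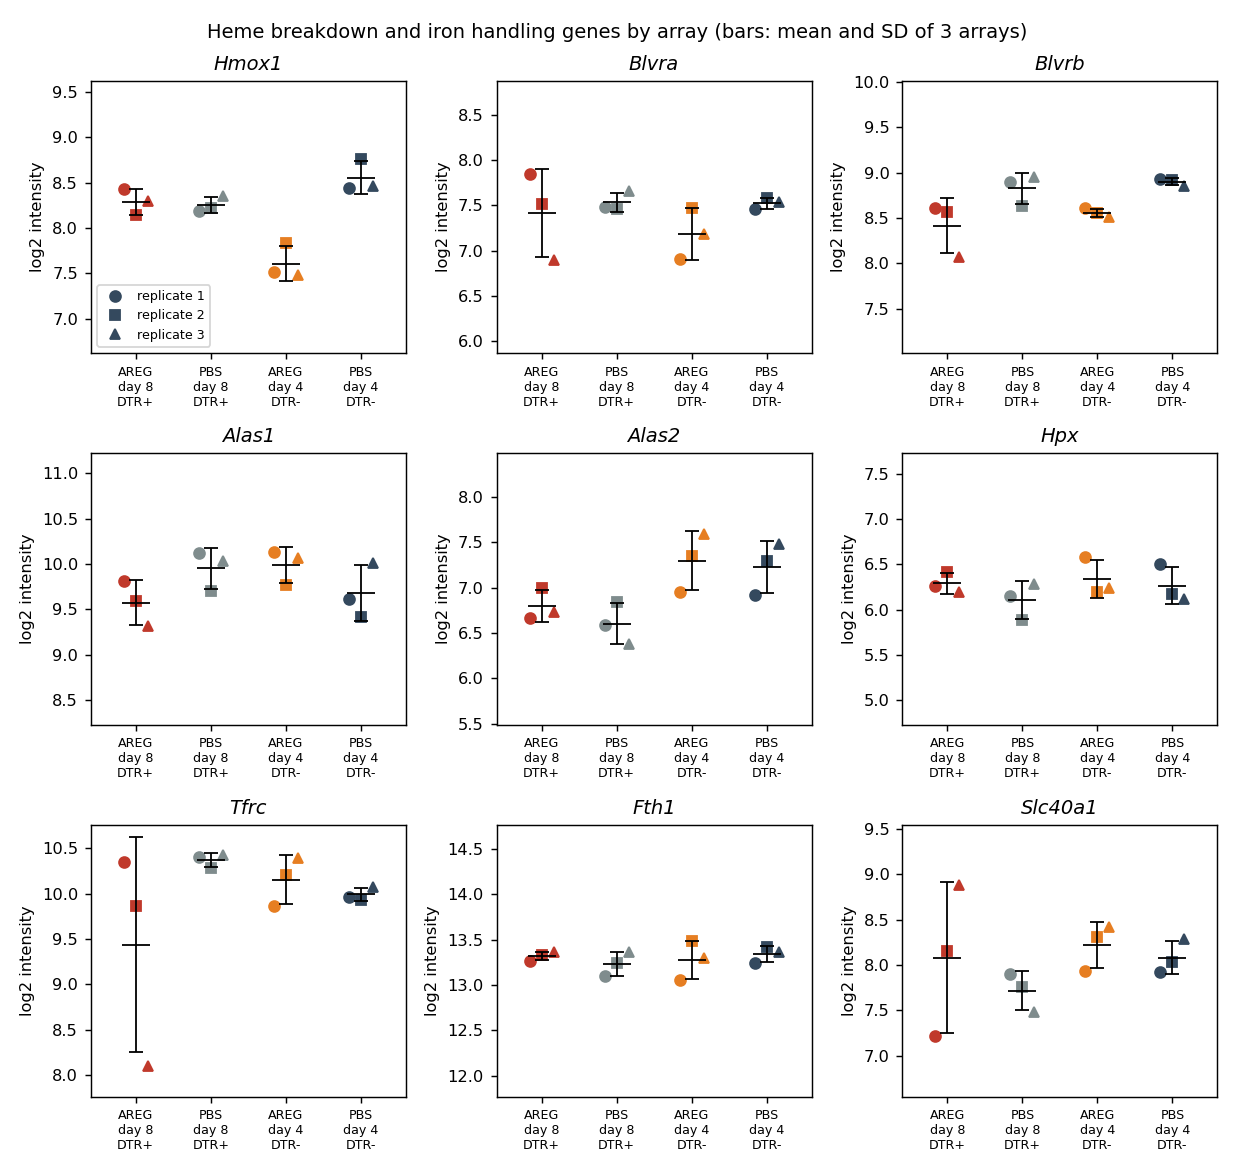
Log2 intensity of the 9 genes in each array, 1 panel per gene with vertical axes of equal span, and the mean and SD of the 3 arrays in black. Hmox1 sits lowest in the AREG group of day 4 (7.48 to 7.83), and Tfrc, Blvra, Blvrb and Slc40a1 spread widely in the AREG group of day 8.

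Hmox1 fell by 0.95 ± 0.13 on the log2 scale with AREG at day 4 (SE, n = 3 per group, a 1.93-fold difference, adjusted p = 0.00934, limma). It was the 1 of the 9 genes called in that comparison, where 2.9% of all genes were called, 2.11% lower and 0.79% higher. With the replicate number as a block 914 genes were called, against 573, and Hmox1 among them. The call was lost without replicate 3 of the AREG group (-0.88, adjusted p = 0.0588) or without replicate 2 of the PBS group (-0.85, adjusted p = 0.0681). At day 8 the difference was 0.04 ± 0.13 (adjusted p = 0.961), and its sign turned without replicate 1 of the AREG group (-0.03). In order of level, Hmox1 averaged 8.55 ± 0.18 in PBS muscle of day 4, 8.29 ± 0.14 in AREG muscle of day 8, 8.25 ± 0.08 in PBS muscle of day 8 and 7.61 ± 0.19 in AREG muscle of day 4 (SD, n = 3). The AREG and PBS groups of day 8 did not differ beyond their spread. The PBS groups, at -0.30 ± 0.13 for day 8 against day 4, did not overlap but were not called (adjusted p = 0.337).

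Between the AREG groups Hmox1 rose by 0.68 ± 0.13 at day 8 in DTR+ mice against day 4 in DTR- mice (adjusted p = 0.0202, limma), and it was again the 1 gene of the 9 called, with 0.719% of all genes called, 0.527% higher and 0.192% lower. Of all genes 4.2% had AREG groups that did not overlap with day 8 higher, as Hmox1 did, and 8.97% with day 8 lower, which held for 0 of the 9. This call was lost without replicate 1 or 3 of the AREG group of day 4 (adjusted p = 0.0856 and 0.133), without replicate 1 of the AREG group of day 8 (0.104) and when the 6 AREG arrays were fitted alone (0.11). The AREG effect at day 8 minus that at day 4 was 0.99 ± 0.19 for Hmox1 (adjusted p = 0.426, limma). After adjustment over all genes the effects were therefore not shown to differ, and 0% of all genes were called for this difference. At an unadjusted p under 0.05 there were 2 of the 9 genes, Hmox1 and Alas1, against 5.87% of all genes. Without replicate 3 of the AREG group of day 8 there were 3 of the 9, Blvra being added, against 10.5% of all genes.

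Macrophage markers moved with Hmox1 on most arrays. Of the 20 markers measured, 11 were called lower with AREG at day 4 in limma's test, against 2.11% of all genes. The median log2 change of the 20 was -1.05, against 0.04 over all genes. At day 8, 19 of the 20 were lower with AREG, with 0 called and a median of -0.50, against 0.005 over all genes. Their summed intensity was 7944 to 21932 in AREG and 18516 to 25544 in PBS muscle of day 8, and 9095 to 12230 in AREG and 19785 to 25560 in PBS muscle of day 4. Replicate 3 of the AREG group at day 8 had the lowest macrophage sum of all 12 arrays, and Hmox1 read 8.29 there, within the range of the PBS arrays of that day. Of the 11 neutrophil markers 0 exceeded the median gene. Of 11 markers of regenerating fibres 5 were called lower with AREG at day 4, against 2.11% of all genes, with a median of -1.06. At day 8, 9 of the 11 were lower, with 0 called and a median of -0.48. Their summed intensity was 7197 to 16564 in AREG and 16934 to 19448 in PBS muscle of day 8, and 18080 to 24526 in AREG and 28667 to 39716 in PBS muscle of day 4. Of 10 fibroblast markers 9 were lower with AREG at day 4, with 0 called and a median of -0.46. At day 8, 9 of the 10 were lower, with 0 called and a median of -0.47. Their mean log2 intensity was then 10.69, 10.51 and 9.47 in AREG replicates 1, 2 and 3, against 10.58 to 10.82 in PBS muscle. The regenerating fibre sum was 16564, 13082 and 7197 in the same AREG arrays. Replicate 3 thus weighed on the day 8 medians, which were not looked at without it for macrophage, regenerating fibre or fibroblast markers. The part of these cells in the Hmox1 values was not tested, and in whole muscle fewer cells of a type and less RNA per cell cannot be told apart.

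**Figure D2:**
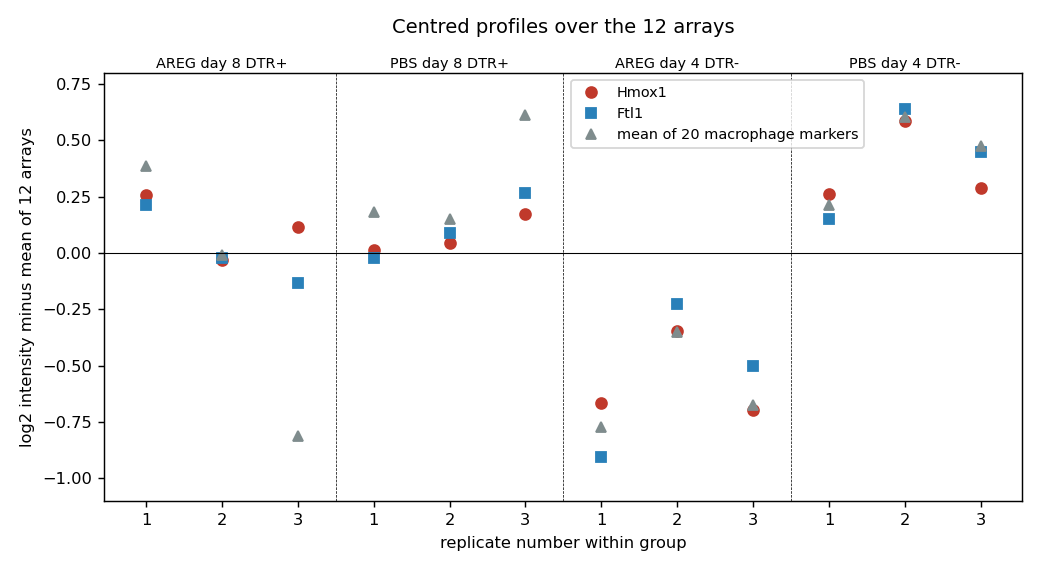
Log2 intensity of Hmox1 and Ftl1, and the mean log2 intensity of 20 macrophage markers, each minus its own mean over the 12 arrays, by group and replicate. All 3 lie below 0 in the AREG group of day 4 and above 0 in the PBS group of day 4, and the macrophage mean parts from Hmox1 in replicate 3 of the AREG group of day 8.

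Ftl1, the light chain of ferritin, the iron storage shell, had the profile closest to that of Hmox1. Likeness was measured as the root mean square difference of centred log2 values over the 12 arrays, among the 9875 genes of the brighter part of the array (those not below the median gene). It was 0.137 for Ftl1, against a median of 0.416 over the genes searched and a spread of Hmox1 about its own mean of 0.371. Next came Hexa, a lysosomal hexosaminidase subunit (0.183), Gm6548 (0.186), Ube2c, a mitotic ubiquitin-conjugating enzyme (0.186), and Tor3a (0.191).

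Ftl1 read 11.52, 11.29 and 11.18 in AREG muscle of day 8, against 11.29, 11.40 and 11.58 in PBS muscle. At day 4 it read 10.40, 11.08 and 10.81 in AREG muscle, against 11.46, 11.95 and 11.75 in PBS muscle. It fell by 0.96 ± 0.17 with AREG at day 4 (adjusted p = 0.0198, limma), and the groups did not overlap. The call was lost when 1 array was left out, at an adjusted p of 0.0654 without AREG replicate 1, 0.0756 without AREG replicate 3 and 0.145 without PBS replicate 2. At day 8 the groups overlapped, with a difference of -0.09 ± 0.17 (adjusted p = 0.924). Ferritin genes have many processed pseudogenes, so probes for Ftl1 and Fth1 may also read copies.

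The biliverdin reductases gave smaller differences. Blvrb, a flavin and biliverdin reductase abundant in red cells, read 8.62, 8.56 and 8.07 in AREG muscle of day 8, against 8.89, 8.64 and 8.95 in PBS muscle. At day 4 it read 8.61, 8.55 and 8.51 in AREG muscle, against 8.93, 8.91 and 8.86 in PBS muscle. On each day every AREG array lay below every PBS array. The difference was -0.41 ± 0.14 at day 8 (adjusted p = 0.617) and -0.34 ± 0.14 at day 4 (adjusted p = 0.211), so neither passed limma's test. Groups of all genes that did not overlap with AREG lower made up 7.14% at day 8, against 1 of the 9 genes here, and 12% at day 4, against 2 of the 9. Without replicate 3 of the day 8 AREG group the difference of day 8 was -0.24.

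Blvra, the main biliverdin reductase of adult tissue, read 7.85, 7.51 and 6.90 in AREG muscle of day 8, against 7.48, 7.46 and 7.66 in PBS muscle. At day 4 it read 6.91, 7.47 and 7.18 in AREG muscle, against 7.46, 7.58 and 7.54 in PBS muscle. The groups overlapped on both days, at -0.11 ± 0.19 (adjusted p = 0.917) and -0.34 ± 0.19 (adjusted p = 0.432). Without replicate 3 of the AREG group the difference at day 8 was 0.15, and without replicate 1 it was -0.33. The day 4 difference was -0.20 without replicate 1 of the AREG group and -0.48 without replicate 2.

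**Figure D3:**
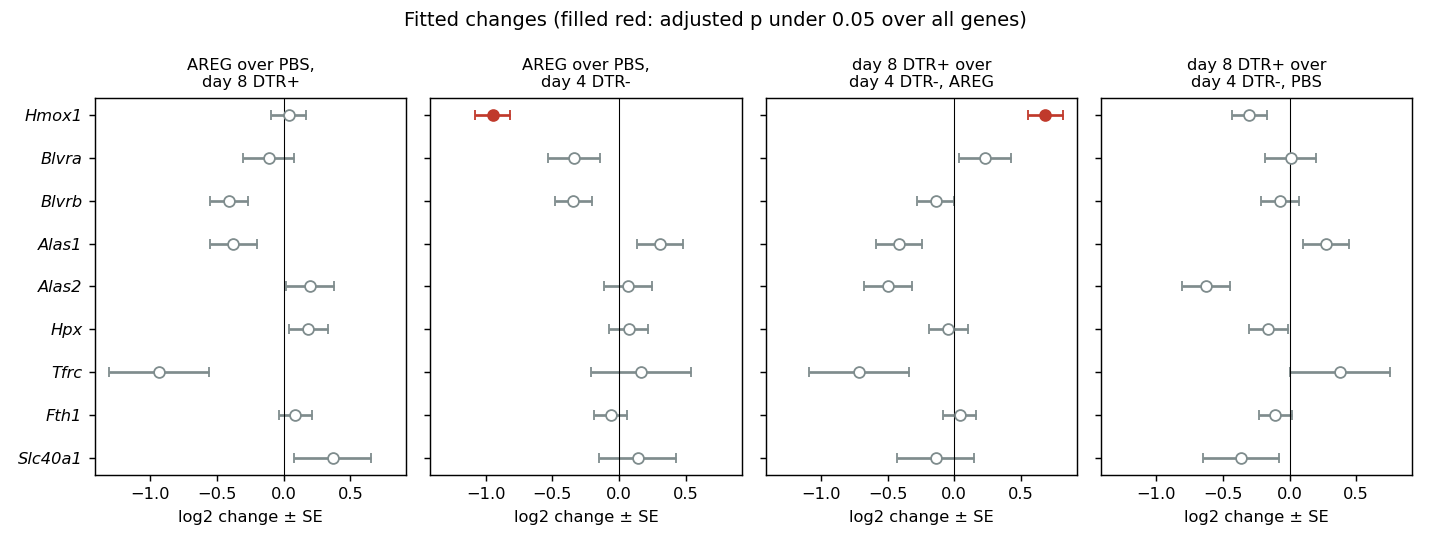
Fitted log2 change with its SE for the 9 genes in 4 comparisons, AREG over PBS at day 8 and at day 4, and day 8 over day 4 with AREG and with PBS. Filled red points, Hmox1 at -0.95 and at 0.68, passed an adjusted p of 0.05, and all other points are open.

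For heme synthesis, Alas1, the synthase found in most cells, read 9.81, 9.59 and 9.32 in AREG muscle of day 8, against 10.12, 9.70 and 10.03 in PBS muscle. At day 4 it read 10.13, 9.76 and 10.07 in AREG muscle, against 9.61, 9.42 and 10.01 in PBS muscle. The AREG difference was -0.38 ± 0.17 at day 8 (adjusted p = 0.652) and 0.31 ± 0.17 at day 4 (adjusted p = 0.422), with overlap on each day. The day 8 effect minus the day 4 effect was -0.68 ± 0.25 (adjusted p = 0.743, limma), so a change of sign between the settings was not shown. Single arrays moved both differences, that of day 8 to -0.25 without replicate 3 of the AREG group and that of day 4 to 0.18 without replicate 2 or 0.47 without replicate 3 of the PBS group.

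Alas2, the synthase of red cell precursors, read 6.67, 7.0 and 6.73 in AREG muscle of day 8, against 6.95, 7.35 and 7.59 in AREG muscle of day 4. In PBS muscle it read 6.59, 6.84 and 6.38 at day 8, against 6.92, 7.29 and 7.48 at day 4. The PBS groups did not overlap and the AREG groups did. The Alas2 cluster lay at percentile 46.6 of level among all genes, below the median gene. The difference between day 8 DTR+ and day 4 DTR- muscle was -0.50 ± 0.18 with AREG (adjusted p = 0.314) and -0.63 ± 0.18 with PBS (adjusted p = 0.101). It passed with PBS when those 6 arrays were fitted alone (adjusted p = 0.0499). Of the other red cell markers 11 of 17 had a cluster of their own, the globin genes not among them. Only 2 of these, Sptb and Ank1, lay above the median level (means of 8.99 and 8.19 in PBS muscle of day 4). A sum of intensities is therefore weighted to these 2 genes. In whole muscle the cells that express them cannot be told apart, so the sum is not a measure of red cells alone. The summed intensity of the 11 was 1473 to 1570 in PBS muscle of day 8 and 1449 to 1614 in PBS muscle of day 4. Between those groups 0 of the 11 were called, 8 being lower (median log2 change -0.11, against -0.04 over all genes). With AREG the sum was 1546 to 1881 at day 8 and 1804 to 1963 at day 4, with 0 of the 11 called and 11 of 11 lower (median -0.20, against -0.06 over all genes). The part of red cells in the Alas2 values was not tested.

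Hpx, hemopexin, the plasma protein that binds free heme, was a dim cluster below the median level of all genes. It ranged over 6.20 to 6.42 in AREG and 5.88 to 6.29 in PBS muscle of day 8, and over 6.20 to 6.58 in AREG and 6.12 to 6.50 in PBS muscle of day 4. The AREG difference was 0.19 ± 0.15 at day 8 and 0.07 ± 0.15 at day 4 (adjusted p = 0.791 and 0.885), and the groups overlapped on each day. At this level a small difference would be hard to see.

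Iron uptake was represented by Tfrc, the transferrin receptor, whose messenger RNA is known to be held stable when cellular iron is low. Tfrc read 10.35, 9.86 and 8.10 in AREG muscle of day 8, against 10.40, 10.29 and 10.43 in PBS muscle. Its replicate 3 value with AREG was the lowest of the 12 arrays, and the groups overlapped. The difference at day 8 was -0.93 ± 0.37 (adjusted p = 0.64, limma), the largest in size of the 9 genes in that comparison. Without replicate 3 of the AREG group it was -0.26 ± 0.16. At day 4 Tfrc read 9.87, 10.20 and 10.39 in AREG muscle, against 9.97, 9.93 and 10.08 in PBS muscle, a difference of 0.16 ± 0.37 (adjusted p = 0.903). The PBS groups did not overlap, with day 8 higher than day 4 by 0.38 ± 0.37 (adjusted p = 0.699). The SE is shared by all groups, and the SD was 1.19 in AREG muscle of day 8. In PBS muscle the SD was 0.07 at day 8 and 0.08 at day 4. With the PBS arrays fitted alone, or without replicate 3 of the AREG group of day 8, limma's unadjusted p was under 0.05. Its adjusted p was 0.0671 or more in every alternative.

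Iron storage was represented by Fth1, the ferritin heavy chain, which oxidises iron as it enters the shell. Fth1 ranged over 13.26 to 13.36 in AREG and 13.10 to 13.36 in PBS muscle of day 8, and over 13.06 to 13.48 in AREG and 13.24 to 13.42 in PBS muscle of day 4. The AREG difference was 0.09 ± 0.12 at day 8 (adjusted p = 0.903) and -0.06 ± 0.12 at day 4 (adjusted p = 0.881). The fall of its partner chain Ftl1 at day 4 was thus not accompanied by a called change of Fth1. Fth1 lay at percentile 99.9 of level among all genes, and at so bright a cluster the summary of the array values can compress a difference.

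Iron export was represented by Slc40a1, ferroportin, the only known cellular iron exporter. It read 7.22, 8.15 and 8.88 in AREG muscle of day 8, against 7.91, 7.76 and 7.49 in PBS muscle. The AREG arrays held both the lowest and the highest value of all 12. At day 4 it read 7.93, 8.31 and 8.42 in AREG muscle, against 7.93, 8.03 and 8.28 in PBS muscle. The AREG difference was 0.37 ± 0.29 at day 8 (adjusted p = 0.791) and 0.14 ± 0.29 at day 4 (adjusted p = 0.886). The difference at day 8 was -0.03 without replicate 3 of the AREG group and 0.80 without replicate 1. The genes with the nearest profiles were Asb2 (0.181), Stk40 (0.189), Cnksr1 (0.195), the lysosomal cholesterol transporter Npc1 (0.2) and muscle fructose bisphosphatase Fbp2 (0.203), against a median of 0.435. For Alas2 they were the prostaglandin dehydrogenase Hpgd (0.2), Atp9a (0.21), Tenm3 (0.216), Sema6d (0.219) and the endothelin receptor Ednrb (0.227), against a median of 0.388.

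As a set, the 9 genes shared no direction. With AREG the median log2 change was 0.04 at day 8, with 5 genes higher and 4 lower, and 0.07 at day 4, again with 5 higher and 4 lower. Over all genes the medians were 0.005 and 0.04. At day 8 limma called 0 of the 9 genes and 0.00506% of all genes, and at an unadjusted p under 0.05 there were 3 of the 9 (Blvrb, Tfrc and Alas1), against 7.62% of all genes. With replicate 3 of the AREG group left out there were 0 of the 9, against 4.87% of all genes. Between the PBS groups 0 of the 9 were called and 2.34% of all genes, with 2 of the 9 (Alas2 and Hmox1) and 13.1% of all genes at an unadjusted p under 0.05. Of all genes 1.19% were called higher and 1.15% lower at day 8 with PBS. The PBS groups did not overlap for 4 of the 9 genes, Tfrc being higher at day 8 and Hmox1, Alas2 and Slc40a1 lower, against 23.4% of all genes, 9.17% higher and 14.2% lower. Between the AREG groups 3 of the 9 genes (Hmox1, Alas1 and Alas2) had an unadjusted p under 0.05, against 10.3% of all genes. With replicate 3 of the AREG group of day 8 left out there were 4 of the 9 (Hmox1, Alas2, Blvra and Slc40a1), against 15% of all genes. Groups of AREG and PBS that did not overlap with AREG higher were found for 0 of the 9 genes on either day, against 7.06% of all genes at day 8 and 10.2% at day 4, and in either direction for 14.2% and 22.3%. The comparisons of AREG with PBS and of day 8 with day 4 share arrays, so their values are not independent.

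The wider pathway was read through lists of genes for each role. In heme scavenging, transport and breakdown 13 of 13 genes were measured, and at day 4 limma called Hmox1 and Lrp1 lower with AREG and 0 higher, with a list median of 0.06. Lrp1, the receptor that takes up heme bound to hemopexin, read 10.17, 10.29 and 10.25 in AREG muscle of day 4, against 10.55, 11.09 and 10.78 in PBS muscle. It fell by 0.57 ± 0.14 on the log2 scale (adjusted p = 0.0478), a call lost in 13 of 21 alternatives. Among the other genes of that list Hmox2, the constitutive heme oxygenase, differed by -0.06 ± 0.11 and Cd163, the macrophage receptor for hemoglobin bound to haptoglobin, by 0.06 ± 0.15 at day 4 (adjusted p = 0.856 and 0.916). Flvcr1, a heme exporter, read 9.75, 9.58 and 9.30 in AREG muscle of day 4, against 8.52, 8.92 and 9.13 in PBS muscle. Its groups did not overlap, and its difference of 0.69 ± 0.19 did not pass the test (adjusted p = 0.059). Hmox2, Cd163 and Flvcr1 were singled out after their values were seen. Cd163 was the 1 macrophage marker of the 20 that was not lower with AREG at day 4. Its group means were 6.96 to 7.02, below the median gene (7.15), where a small difference would be hard to see. At day 8 the list had 0 calls, and Blvrb had the smallest p.

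In iron storage and export 10 of 11 genes were measured, and Ftl1 was the 1 gene called with AREG at day 4, while 0 were called at day 8. Between the PBS groups 1 gene of this list was called, Cp (ceruloplasmin), the copper ferroxidase that oxidises iron leaving the cell. Cp read 8.72, 8.79 and 8.75 in PBS muscle of day 8, against 7.53, 7.76 and 8.20 in PBS muscle of day 4, and rose by 0.93 ± 0.16 (adjusted p = 0.00452). In AREG muscle it read 8.59, 8.66 and 8.55 at day 8, against 7.80, 8.13 and 8.31 at day 4, a difference of 0.52 ± 0.16 that did not pass (adjusted p = 0.208). In neither pair did the groups overlap.

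In iron sensing 11 of 11 genes were measured, and 1 was called, Hjv (hemojuvelin), a membrane coreceptor of hepcidin control that skeletal muscle makes in quantity. Hjv read 12.45, 12.36 and 12.46 in AREG muscle of day 4, against 12.09, 12.03 and 11.97 in PBS muscle. It rose by 0.39 ± 0.10 (adjusted p = 0.0458), a call lost in 11 of 21 alternatives. At day 8 it differed by 0.08 ± 0.10 (adjusted p = 0.883). The 16 mature fibre markers were all higher with AREG at day 4, with 0 called and a median of 0.16, against 0.04 over all genes. Groups did not overlap with AREG higher for 11 of the 16, against 10.2% of all genes. The part of muscle fibres in the Hjv values was not tested.

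The other lists held no called gene in the AREG comparisons. Heme synthesis had 8 of 9 genes measured, with medians of -0.05 at day 8 and 0.12 at day 4. Its smallest p was at day 8 that of Urod, uroporphyrinogen decarboxylase, at -0.25 (adjusted p = 0.644), and at day 4 that of Cpox, coproporphyrinogen oxidase, at 0.41 ± 0.13 (adjusted p = 0.0983). Iron uptake had 12 of 13 measured, with medians of 0.02 on each day. Its smallest p at day 4 was that of Steap2, a ferrireductase, at -0.60 ± 0.17 (adjusted p = 0.063), which passed with the replicate number as a block (0.0401). Mitochondrial iron and iron-sulfur cluster genes had 11 of 15 measured, with medians of -0.03 at day 8 and 0.04 at day 4.

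The list of NRF2 and BACH1 regulated antioxidant genes also held Nfe2l2 (the gene of NRF2), Bach1 and Keap1. Of 14 genes 13 were measured, with medians of 0.13 at day 8 and 0.08 at day 4, and 0 called on either day. With AREG at day 4, 7 were higher and 6 lower. Groups did not overlap for 3 higher (Me1, Nqo1 and Osgin1) and 2 lower (Nfe2l2 and Bach1), against 10.2% and 12% of all genes. At day 4 the smallest p was that of Me1, the cytosolic malic enzyme, which read 10.84, 10.84 and 11.04 in AREG muscle, against 10.24, 9.65 and 10.37 in PBS muscle. Me1 differed by 0.82 ± 0.21 (adjusted p = 0.0533), in the direction opposite to Hmox1. Of the adipocyte markers 7 of 8 were measured, and at day 4 with AREG 7 of 7 were higher. Of these 2 were called, against 0.79% of all genes called higher. The median of the 7 was 0.64, against 0.04 over all genes. Their summed intensity was 3202 to 4105 in AREG and 2134 to 3000 in PBS muscle. Their part in the Me1 values was not tested. The quinone reductase Nqo1 had the smallest p at day 8, at 0.55 ± 0.22 (adjusted p = 0.64), and its highest value, 8.61, was in replicate 3 of the AREG group. Without that array the difference was 0.27, and without replicate 1 of the AREG group it was 0.83.

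**Figure D4:**
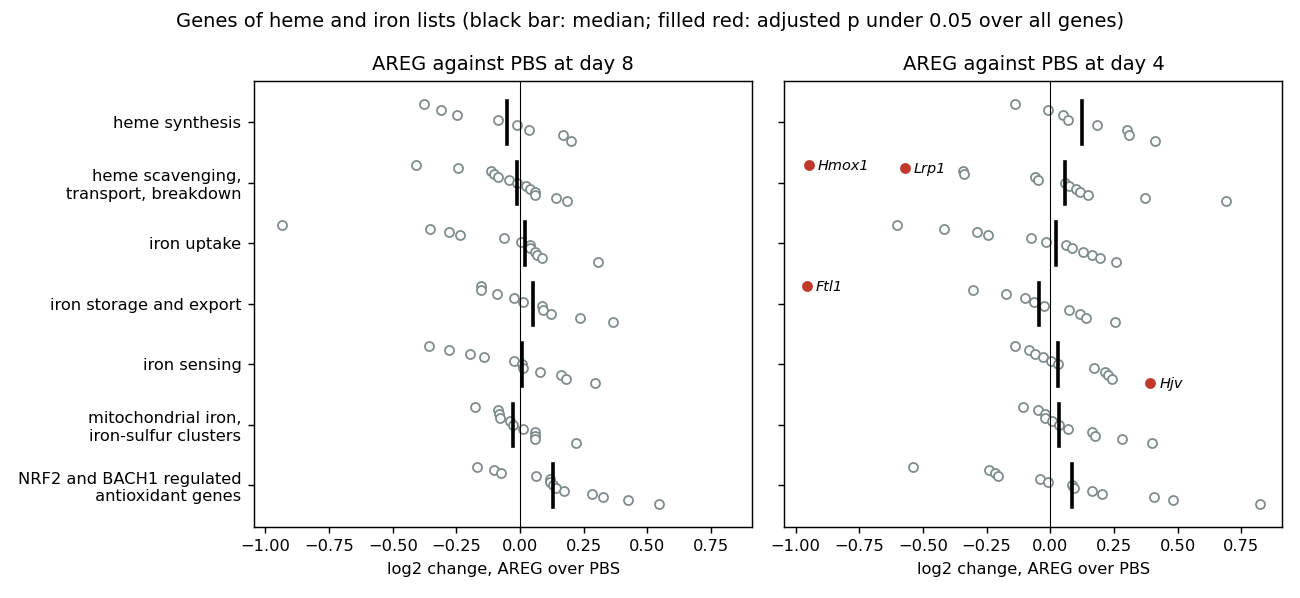
Log2 change of AREG over PBS at day 8 (left) and day 4 (right) for each measured gene of 7 heme and iron lists, with the list median as a black bar. Filled red points passed an adjusted p of 0.05, and these are Hmox1, Lrp1, Ftl1 and Hjv, all at day 4.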

How the data were processed

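Whole-muscle RNA was hybridised to 12 arrays, 3 per group. The deposited values are intensity, not log-transformed (4.65 to 21512.5, array medians 134 to 143). They were summarised by RMA with Affymetrix Power Tools, per the submitters' processing notes, and RMA can compress differences at very bright or dim clusters. Program versions and genome build were not given in the sources used here. Here the values were log2-transformed without a pseudocount or a filter on low genes. Of 24922 clusters 21425 carried 1 symbol, and for 921 genes with several clusters the brightest was kept. One linear model of the 4 group means was fitted to all genes (limma 3.58.1, R 4.3.3, 8 residual degrees of freedom) and moderated with eBayes. The script was tested on simulated data.

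The members, lists and alternatives were chosen with earlier results of these data known. Genes were named from all members, in each list and comparison the called genes (at most 4) or the gene with the smallest p, and the 5 genes nearest in profile to Hmox1, Slc40a1 and Alas2. AREG and PBS arrays of the same replicate number deviated together at day 4 (residual correlations of 0.558, 0.201 and 0.511) but not at day 8 (-0.198, 0.123 and -0.003). At day 4, AREG replicate 2 correlated more with PBS replicate 3 (0.270) than with PBS replicate 2. The labels do not say whether the numbers mark pairs. The main fit used no pairing. For AREG against PBS, the replicate block took the numbers within each day as pairs, on both days. Alternatives changed the normalization, centring, pseudocount, filter, cluster choice, eBayes options, array weights, arrays fitted and replicate block, and left out each array in turn.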

Additional observations from a re-analysis of the deposited data

How the results depend on the processing

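Of 1527 gene values under alternatives, 1427 kept direction and side of the threshold, 33 lost the call, 41 gained one and 26 turned sign. The log2 change of Hmox1 with AREG at day 4 was negative in 21 of 21 alternatives (-1.11 to -0.85) and called in 19. The cause of the losses was not tested. With 3 arrays per group, single arrays weigh on every count.

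For AREG at day 4, 573 genes were called, against 358 with a pseudocount of 32, 938 with the arrays of both groups alone, 914 with the replicate block and 5305 with array quality weights. Repeated quantile normalization called 832, of which 38.9% were higher, against 27.2%. Among the 9 genes and the called or smallest-p genes of the lists, the replicate block changed no call other than that of Steap2. Flvcr1, Hmox2, Cd163 and the genes nearest in profile other than Ftl1 were not looked at under the alternatives. Leaving out 1 array gave 9 to 1336 genes, with 9 without AREG replicate 3 or PBS replicate 2 of day 4 and 1336 without AREG replicate 3 of day 8. Members called were 4 with array quality weights and 0 to 1 without 1 array. For AREG at day 8, 1 gene was called, against 1192 with array quality weights and 0 with repeated quantile normalization, centring on medians, the pseudocount of 32, genes at or above the median level, the mean of a gene's clusters, the trend and robust options, the arrays of both groups alone or the replicate block, and 0 to 1 without 1 array. For the difference of the AREG effects, array quality weights called 2232 genes and 3 members, against 0 and 0. Between the PBS groups, 463 genes were called, against 1649 with array quality weights and 759 with those arrays alone, each with 1 member (Alas2), and 209 to 719 without 1 array. Between the AREG groups, 142 genes were called, against 91 with the pseudocount, 6676 with array quality weights (5 members) and 86 with those arrays alone (0 members). Without 1 array, 79 to 458 genes and 0 to 1 members were called there.

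Signs turned only for changes that were not called. With array quality weights, log2 changes were -0.083 for Hmox1 with AREG at day 8, 0.081 for Blvrb in the difference of effects, -0.0099 for Blvra between the PBS groups, and 0.032 for Blvrb and 0.16 for Hpx between the AREG groups. Hpx was 0.020 between the AREG groups with repeated quantile normalization and 0.0021 with centring. Ranges without 1 array for AREG at day 4 were -0.089 to 0.24 for Alas2, -0.16 to 0.048 for Fth1 and -0.048 to 0.19 for Hpx. For AREG at day 8 they were -0.033 to 0.11 for Hmox1, -0.33 to 0.15 for Blvra and -0.032 to 0.80 for Slc40a1. For the difference of effects they were -0.17 to 0.11 for Blvrb, -0.17 to 0.66 for Slc40a1, -0.045 to 0.29 for Alas2 and -0.0057 to 0.23 for Hpx. Between the PBS groups they were -0.055 to 0.041 for Blvra and -0.13 to 0.022 for Blvrb. Between the AREG groups they were -0.24 to 0.034 for Blvrb, -0.54 to 0.29 for Slc40a1, -0.070 to 0.14 for Fth1 and -0.11 to 0.073 for Hpx.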
